A study of Mus musculus with 24 samples.

Results

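The cytoplasmic ribosomal protein genes were followed in whole ovaries of C57BL/6J mice across natural aging and after ABT263 treatment. A gene was taken as a member when its GENCODE M21 biotype was protein coding and its symbol began with Rpl or Rps and a number, or was Rplp0, Rplp1, Rplp2 or Rpsa. Protein kinases, binding proteins, pseudogenes and the divergent paralogs Rpl7l1, Rpl22l1, Rpl3l, Rpl39l and Rpl10l were left out. Rps6, itself a small subunit gene, was left out as well. Other copies and paralogs, such as Rps27l, Rpl36al and Rps27rt, were kept. The rule found 79 members among 54532 gene identifiers, of which 32 encode proteins of the small subunit, 44 proteins of the large subunit and 3 proteins of its stalk. The natural aging groups were females of 3, 6, 9, 12, 18 and 25 months, with 3 mice in each group. The other 2 groups of 3 mice were given ABT263 (navitoclax), an inhibitor of anti-apoptotic BCL-2 family proteins that is used to clear senescent cells. It was given by mouth in repeated monthly courses from 3 months of age. The ovaries of these mice were collected at 6 months, or at 9 months after the mice had been housed with males. In the labels, the mice of the same age without ABT263 are the natural aging mice, and these served as controls here. The study's methods describe vehicle-treated controls, and the labels do not say whether the natural aging mice received the vehicle. Nor do they say whether the natural aging mice of 9 months were housed with males, as the study describes for its controls. Differences between treated and aging mice thus cannot be told apart from those of vehicle or, at 9 months, of housing.

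Each of the 24 libraries came from the total RNA of a homogenized ovary, and the values are counts of reads per gene. Library totals ran from 16361877 to 21049389 counts, with a median of 19207589. Each mouse has its own label, but the labels do not say whether mice of a group shared a cage or litter. Every member was counted in every library, from 8 counts for Rpl36al to 37997 counts for Rplp0. Levels are given as CPM, counts scaled to a common library size by TMM (edgeR) over all 24 libraries. A difference is a log2 fold change with its standard error from the edgeR quasi-likelihood test, and a gene was called when its p, adjusted over all genes tested in that comparison, was under 0.05.

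Ribosomes translate messenger RNA into protein. The small subunit reads the message and the large subunit joins the amino acids, while the stalk of the large subunit recruits the GTPases that drive initiation and elongation. The proteins of both subunits are needed in equal numbers, and their messages are among the most abundant in growing cells. Most of these messages begin at a short pyrimidine tract (5′ TOP), through which the mTOR pathway controls their translation. In the ovary, growing oocytes store ribosomes for the early embryo, and dividing granulosa cells make them as follicles grow.

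The bases around the transcription start are shown because a pyrimidine tract at this place is what these genes are known to share. RefSeq promoters on GRCm38.p6 matched 59 of the 79 members. Each line shows 15 bases before the start and the first 15 bases from it, on the gene's strand, with the longest run of pyrimidines in capitals. The genes are members called at 25 months (Rpl28, Rps26, Rpl41, Rplp0, Rps27l), the paralog Rps27, and Rpl38 and Rplp2, which are described below.
Rpl28, chr7:4792950-4792979, plus strand: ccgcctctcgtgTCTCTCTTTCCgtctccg
Rplp2, chr7:141447636-141447665, plus strand: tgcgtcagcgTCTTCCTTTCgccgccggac
Rpl38, chr11:114668565-114668594, plus strand: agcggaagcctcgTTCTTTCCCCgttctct
Rps26, chr10:128626492-128626521, minus strand: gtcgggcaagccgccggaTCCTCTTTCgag
Rps27, chr3:90213634-90213663, minus strand: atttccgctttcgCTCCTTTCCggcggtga
Rps27l, chr9:66946071-66946100, plus strand: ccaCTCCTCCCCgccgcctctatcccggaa
Rplp0, chr5:115559452-115559481, plus strand: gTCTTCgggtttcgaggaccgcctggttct
Rpl41, chr10:128549154-128549183, minus strand: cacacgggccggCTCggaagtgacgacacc

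A run of 8 or more pyrimidines lay within 25 bases of the start in 27 of the 59 members, or 45.8%. The same was true of 19.4% of all 27025 promoters. The letters CCGGAAG, the core bound by ETS factors, were found on either strand of the 250 bases before and 50 bases after the start in 39.0% of the members and in 9.12% of all promoters. The letters AAGATGGC, the core bound by YY1, were found in 6.78% of the members and in 2.88% of all promoters. Rpl41 has no long run in this window, and its longest run of pyrimidines within 25 bases of the start was 3 bases. Such matches describe the sequence only. Levels at 25 months were lower than at 3 months by a median log2 of -0.33 in the 27 members with a run, of -0.27 in the 32 with a shorter run and of -0.34 in the 20 without a matched promoter.

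The members are short genes with short messages. Their median coding length was 453 bases, from 75 bases in Rpl41 to 1257 bases in Rpl4, against 1155 bases over the 21995 protein-coding genes of the table. They had a median of 5 exons, and all protein-coding genes a median of 7. They lay on 19 chromosomes, 14 of them on chromosome 7.

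Levels of different genes were compared per kilobase of the median protein-coding transcript. The median member stood at 759 CPM per kilobase over all 24 libraries. The highest was Rplp0, which anchors the stalk, with 1674 CPM per kilobase, followed by its stalk partner Rplp1 with 1527 and by Rpl10, a late-joining large subunit protein, with 1510. In the 3-month mice Rplp0 measured 1669, 1691 and 1940 CPM, Rpl10 measured 1255, 1195 and 1255 CPM and Rplp1 measured 910, 807 and 913 CPM. In all, 11 members exceeded 1000 CPM per kilobase and 5 stayed under 100. These 5 were Rpl13a, Rps10, Rps27rt, Rpl24 and Rpl36al, with 84.7, 16, 9.60, 3.8 and 1.53 CPM per kilobase.

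The lowest members need care. In the annotation 71.5% of Rpl24, 59.3% of Rpl13a, 53.6% of Rps10 and 26.0% of Rpl36al is covered by another gene on the same strand, mostly read-through genes (Gm28037, Gm45713, RPS10-NUDT3 and Gm49383). These read-through genes had 0 counts in all 24 libraries. How the authors counted a read that fits more than 1 gene is not stated. Rps27rt is a processed copy of Rps27, so reads of these genes may have been split as well. The values of these genes are therefore uncertain as levels of the gene. A further 6 members, Rpl35, Rpl30, Rpl23a, Rps25, Rpl5 and Rpl31, have over 30% of their length covered by a gene on the other strand, and whether strand was used in counting is not stated.

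A single library stood apart in the pseudogenes. In the 9-month aging mouse 3, Rps2-ps10, a processed pseudogene of the small subunit gene Rps2, had 3306 counts. It had between 9 and 37 counts in the other 23 libraries. Rps2 itself had 12014 counts in that mouse and between 14641 and 25085 counts in the other libraries. All 285 ribosomal protein pseudogenes together came to 0.653% of the members' counts in that mouse, and to a mean of 0.251% (SD 0.00570, n = 3) in the 3-month mice. For both comparisons at 9 months, the member median and the count with an unadjusted p under 0.05 are given with and without this mouse. The mean share at 9 months, the counts of members without overlap and the interaction median include it. The values of single mice show it as mouse 3.

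The summed share of the members fell short of the 3-month level at every later age. At 3 months the 79 genes took 5.31, 4.97 and 5.11% of all counts. At 6 months they took 4.09, 3.96 and 4.41%, and at 9 months 3.6, 3.08 and 3.94%. The shares were 3.72, 4.37 and 4.58% at 12 months, 4.05, 4.01 and 4.17% at 18 months and 3.93, 4.54 and 3.65% at 25 months. No aging mouse of a later age reached the lowest 3-month mouse, and the 9-month group was the lowest of all, with a mean of 3.54% ± 0.434 (SD, n = 3) against 5.13% ± 0.174 (SD, n = 3) at 3 months. No test was made on the share, since it is a sum over members chosen together. The groups of 12, 18 and 25 months overlapped with each other and with the 6-month group. In ovaries given ABT263 the share was 4.60, 4.51 and 5.0% at 6 months and 3.95, 4.44 and 4.95% at 9 months. All 3 treated mice of 6 months lay above all 3 aging mice of 6 months, and at 9 months the lowest treated mouse, at 3.95%, lay just above the highest aging mouse, at 3.94%. These are shares of bulk RNA, in which fewer cells of a type and less RNA per cell cannot be told apart.

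**Figure D1:**
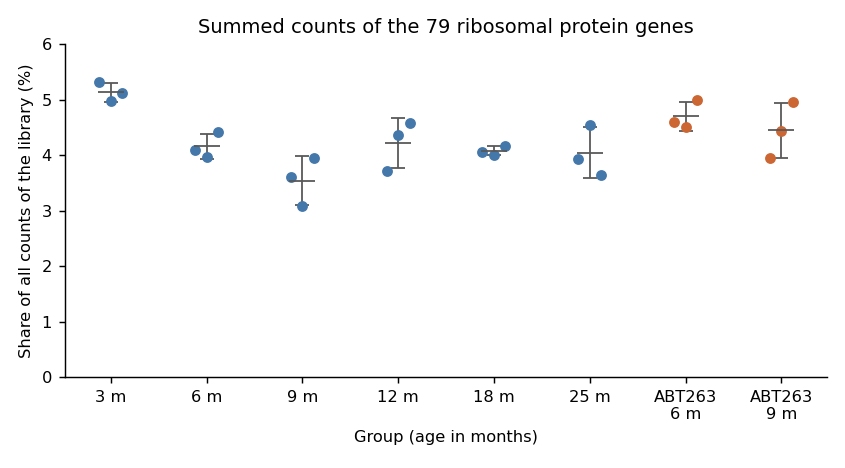
Summed counts of the 79 ribosomal protein genes as a percent of all counts of the library (vertical axis) in each mouse, by group (horizontal axis); points are mice, blue for natural aging and orange for ABT263, and bars are the mean and SD of 3 mice. The 3-month mice lie between 4.97 and 5.31%, above every later aging mouse, and the 9-month mice are lowest, between 3.08 and 3.94%.

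The same course was seen gene by gene. Of the 79 members, 70 had their highest mean among the 6 ages at 3 months and 53 had their lowest mean at 9 months. Another 15 members were lowest at 25 months and 9 at 6 months. The exceptions at the top were 8 members highest at 12 months (Rps21, Rps27, Rps28, Rps29, Rpl38, Rpl39, Rpl24 and Rpl36al) and Rps10, highest at 6 months. Relative to the 3-month mean, the median member stood at a log2 level of -0.30 ± 0.06 (SD, n = 3) at 6 months, -0.48 ± 0.15 at 9 months, -0.23 ± 0.11 at 12 months, -0.30 ± 0.06 at 18 months and -0.31 ± 0.17 at 25 months. The 3-month mice themselves stood at 0.02, -0.05 and 0.02, which is a narrower spread than in any later group. The members followed each other closely across the libraries. Over the 3081 pairs of members the median Pearson correlation of log2 levels was 0.74, which describes libraries that share groups and depth and carries no test.

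**Figure D2:**
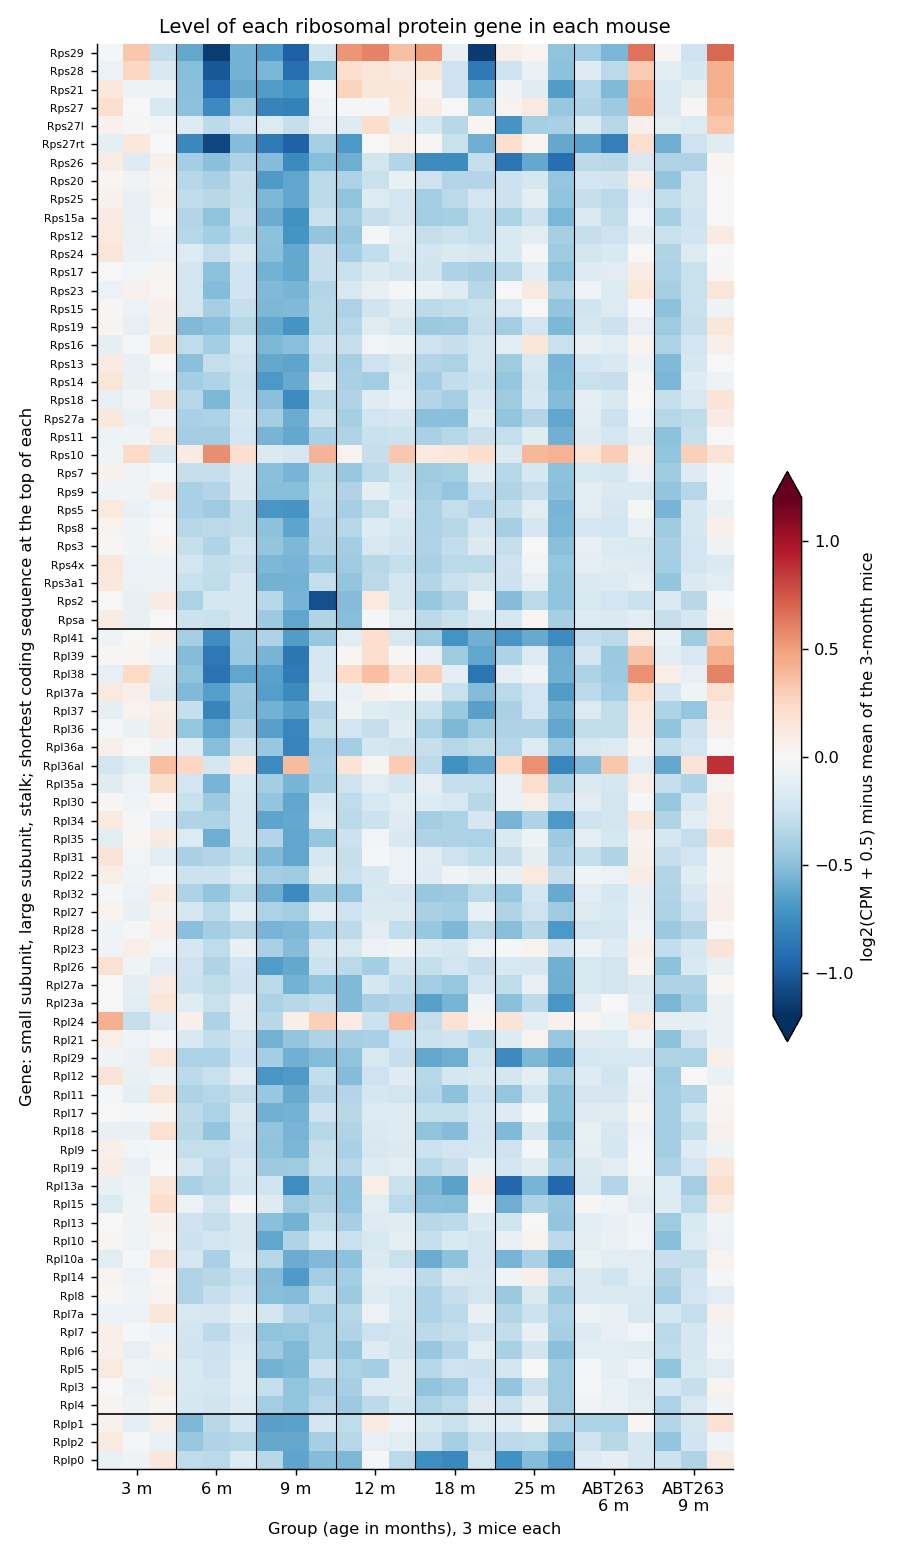
Level of each of 78 of the 79 genes (rows; small subunit, large subunit and stalk, each from the shortest coding sequence down) in each of 24 mice (columns, 3 per group), as log2(CPM + 0.5) minus the mean of the 3-month mice; the colour scale ends at -1.2 and 1.2. Blue fills most of the later ages and is darkest in 9-month mice 1 and 2, where the median member was at -0.52 and -0.60; the short genes at the top of each block (Rps29, Rps28, Rps21, Rpl39, Rpl38) are mostly red at 12 months and in mouse 3 of both ABT263 groups.

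At 6 months no member was called lower than at 3 months, nor was any other gene (0% of 17313 genes tested). The members nevertheless lay together below 0. The log2 fold change was negative in 77 of 79 members, against 49.2% of all genes, with a median of -0.32 against 0.004 over all genes. An unadjusted p under 0.05 with a lower level was found in 62 members and in 5% of all genes, and the smallest adjusted p of a member was 0.328. Without any 1 of the 6 mice that count was 33 to 56, where 3.2 to 6.11% of all genes had such a p. In 74 members all 3 mice of 6 months lay below all 3 of 3 months, against 7.79% of all genes. The members with the smallest p were short genes. Rps21, a small subunit protein, had 391, 342 and 344 CPM at 3 months and 252, 187 and 236 CPM at 6 months (log2 fold change -0.68 ± 0.13 SE, adjusted p = 0.328). Rpl38, a large subunit protein needed for normal skeletal patterning in mice, had 181, 229 and 175 CPM at 3 months and 138, 105 and 125 CPM at 6 months (-0.68 ± 0.15 SE, adjusted p = 0.328). Rpl39, at the exit of the peptide tunnel, had 206, 207 and 199 CPM at 3 months and 142, 112 and 150 CPM at 6 months (-0.61 ± 0.13 SE, adjusted p = 0.328). In all 3 genes the groups did not overlap. Only Rps10 and Rpl36al lay above 0, at 0.29 ± 0.19 SE and 0.06 ± 0.38 SE. Without the filter on low counts 10 members were called lower, where 1.39% of 32850 genes were called in either direction, and by DESeq2 9, where 0.368% of genes were.

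At 9 months the median difference from 3 months was the largest of the aging series, although with a length and GC trend subtracted it was -0.50 at 9 months and -0.60 at 25 months. No member was called, and no gene of 17329 was (0%). The median log2 fold change was -0.49 against 0.02 over all genes, and 78 of 79 members were negative against 47.2% of all genes. A lower level with an unadjusted p under 0.05 was found in 73 members and in 7.55% of all genes, and the 9-month mice lay below all 3-month mice in 71 members and in 10.8% of all genes. The smallest adjusted p was 0.178, shared by several members. Rpl32, a large subunit protein, had 539, 517 and 577 CPM at 3 months and 362, 319 and 399 CPM at 9 months (-0.61 ± 0.14 SE, adjusted p = 0.178). The stalk gene Rplp2 had 479, 438 and 422 CPM at 3 months and 290, 292 and 339 CPM at 9 months (-0.56 ± 0.13 SE, adjusted p = 0.178). Rps26, which lies at the exit of the message from the small subunit, had 810, 687 and 796 CPM at 3 months and 531, 449 and 534 CPM at 9 months (-0.62 ± 0.14 SE, adjusted p = 0.178). Without the 9-month mouse 3 the median was -0.55, no member was called and 71 members had an unadjusted p under 0.05 and a lower level, against 6.72% of 17766 genes. The log2 fold changes of Rpl32, Rplp2 and Rps26 were then -0.68, -0.63 and -0.65. DESeq2 called 24 members lower, where 1.68% of 32900 genes were called in either direction, and edgeR without the filter 3, where 2.07% of genes were.

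At 12 months the median member was closest to the 3-month level, although with the length and GC trend subtracted the medians were -0.28 at 12 months and -0.25 at 6 months. None was called, against 0.0289% of 17315 genes. DESeq2 called none either, where 2.58% of 32695 genes were called. The median log2 fold change was -0.24 against 0.02, 70 members were negative against 47.1% of all genes, and 9 members were lower with an unadjusted p under 0.05 against 6.86% of all genes. Without any 1 mouse that count was 1 to 11, where 4.65 to 8.24% of all genes had such a p. In either direction 10 members had such a p, against 30 in a fit of all 24 mice and 2 with the replicate block. The 12-month mice lay below all 3-month mice in 52 members, against 11.1% of all genes. The lowest by p was Rpl23a, a large subunit protein near the tunnel exit, with 559, 510 and 623 CPM at 3 months and 388, 429 and 441 CPM at 12 months (-0.44 ± 0.14 SE, adjusted p = 0.235). Rpl21, of the large subunit as well, was at -0.35 ± 0.13 SE (adjusted p = 0.294). At the other end, Rps29, a small zinc-binding protein of the small subunit, had 204, 261 and 169 CPM at 3 months and 299, 315 and 267 CPM at 12 months (0.47 ± 0.18 SE, adjusted p = 0.299). Rps29 and Rps21 were the 2 members with all 12-month mice above all 3-month mice, a pattern of 9.57% of all genes. Rps21 had 432, 393 and 393 CPM at 12 months (0.17 ± 0.13 SE, adjusted p = 0.612).

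At 18 months 1 member was called, lower, and 3.48% of all 17403 genes were called lower (8.18% in either direction). It was Rpl41, whose protein is the smallest of the ribosome, with 608, 630 and 655 CPM at 3 months and 470, 382 and 423 CPM at 18 months (-0.58 ± 0.13 SE, adjusted p = 0.0327). Rpl36 (-0.46 ± 0.11 SE, adjusted p = 0.051) and Rpl28 (-0.45 ± 0.12 SE, adjusted p = 0.0627), both of the large subunit, came next. Each was called in 3 of 7 alternatives and in 1 of 6 fits that left out a mouse. The median of the members was -0.31 against -0.001 over all genes, and 78 of 79 were negative against 50.2% of all genes. A lower level with an unadjusted p under 0.05 was found in 47 members and in 11.1% of all genes. Without any 1 mouse the count was 14 to 52, lowest without the 18-month mouse 2, where 8.36% of all genes had such a p. The groups did not overlap in 61 members, against 14% of all genes. The values above are from the fit without pairs. With the replicate number as a block 7 members were called, all lower, where 11.4% of all genes were called in either direction. With this block 53 members had an unadjusted p under 0.05. The count of 1 without the block rested on single libraries. Without the 18-month mouse 3 it was 16, where 16.8% of 18187 genes were called, and without any of the other 5 mice it was 0.

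At 25 months 11 members were called lower and none higher. This is 11 of 79 members, where 11.4% of 17683 genes were called lower, 15.2% higher and 26.7% in either direction, so the share of members called was near that of all genes. The calls comprised 3 of 32 small subunit genes (Rps26, Rps27a and Rps27l), 7 of 44 large subunit genes (Rpl41, Rpl13a, Rpl29, Rpl34, Rpl10a, Rpl28 and Rpl36) and 1 of 3 stalk genes (Rplp0). The median of the members was -0.32 against 0.006 over all genes, and 77 of 79 were negative against 49.6% of all genes. With the length and GC trend subtracted the medians were -0.60 and -0.10. A lower level with an unadjusted p under 0.05 was found in 37 members and in 17.9% of all genes, and the groups did not overlap in 49 members and in 21.8% of all genes. The count of 37 was 38 without the 25-month mouse 2 (14.7% of all genes) and 13 to 22 without any other mouse (14.4 to 21.2%), and it was 20 with the replicate block (17.8%). The count depended on the fit. DESeq2 called 18 members lower, where 17% of 33003 genes were called in either direction. A fit of all 24 mice called 31 lower, where 34.1% of 19513 genes were called, and the replicate block called 6, where 23.7% of genes were. Leaving out a mouse left 5, 4 and 3 calls for the 3-month mice 1, 2 and 3 and 4, 6 and 7 calls for the 25-month mice 1, 2 and 3. In these fits 16.5, 17.9 and 15.7% and 19.5, 17.4 and 32.1% of all genes were called in either direction.

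Of the genes called at 25 months, Rps26, Rpl41 and Rpl13a were also called without any 1 of the 6 mice. Rps26 had 810, 687 and 796 CPM at 3 months, 450, 452 and 629 CPM at 18 months and 415, 498 and 407 CPM at 25 months (-0.80 ± 0.15 SE, adjusted p = 0.00901). Every later mouse of the aging series lay below the lowest 3-month mouse. Rpl41 had 389, 414 and 374 CPM at 25 months (-0.69 ± 0.13 SE, adjusted p = 0.00786), with every 25-month mouse below the 12-month mice, which had 576, 721 and 551 CPM. Rpl13a had 48.0, 49.1 and 56.5 CPM at 3 months and 26.3, 34.5 and 26.4 CPM at 25 months (-0.82 ± 0.16 SE, adjusted p = 0.00859), with the doubt about its counting given above.

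Rpl29, a heparin-binding large subunit protein, had 645, 632 and 728 CPM at 3 months and 393, 458 and 428 CPM at 25 months (-0.65 ± 0.14 SE, adjusted p = 0.0142). Rpl28 had 607, 622 and 666 CPM at 3 months and 443, 499 and 392 CPM at 25 months (-0.51 ± 0.15 SE, adjusted p = 0.038). Neither gene overlapped between the ages. Rpl34 (-0.54 ± 0.14 SE, adjusted p = 0.029), Rpl10a (-0.52 ± 0.15 SE, adjusted p = 0.0351), Rpl36 (-0.45 ± 0.13 SE, adjusted p = 0.0435) and Rps27a, whose protein is made as a fusion with ubiquitin (-0.48 ± 0.14 SE, adjusted p = 0.0426), had smaller differences. Leaving out any 1 of the 6 mice ended the calls of Rpl28, Rpl10a, Rpl36 and Rps27a, while Rpl29 kept its call in 5 of these 6 fits and Rpl34 in 2. At the other end, Rps10 (0.24 ± 0.25 SE) and Rpl36al (0.11 ± 0.55 SE) again had positive values within their error.

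**Figure D3:**
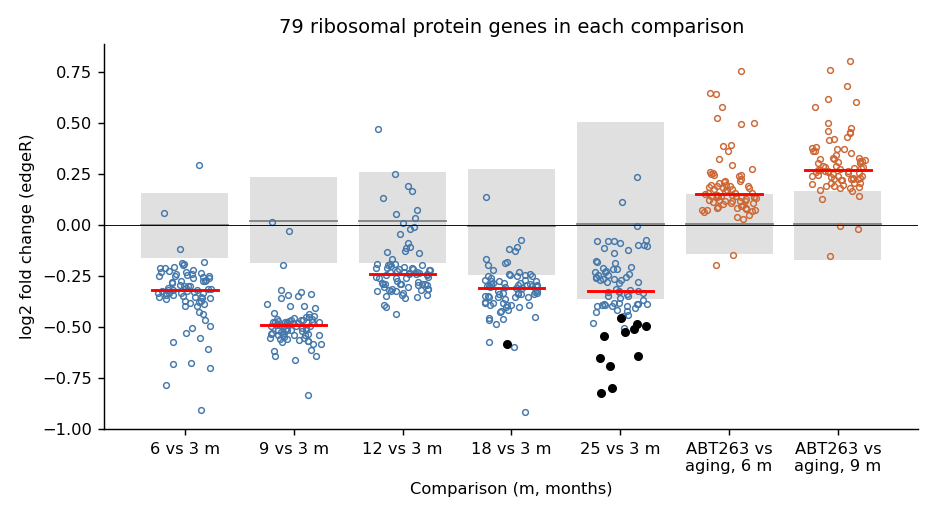
Log2 fold change (vertical axis, edgeR) of each of the 79 genes (circles) in 7 comparisons (horizontal axis), with the member median as a red line, called genes in black, and the middle 50% of all genes tested as a grey box with its median. The red line runs from -0.24 at 12 months to -0.49 at 9 months in the aging comparisons and stands at 0.15 and 0.27 in the ABT263 comparisons; black points occur at 18 months (1 gene) and 25 months (11 genes).

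Tested for any difference among the 6 ages, 15 members were called, or 15 of 79 where 22% of 19201 genes were. An unadjusted p under 0.05 was found in 57 members and in 35.2% of all genes. The smallest adjusted p values were those of Rpl41 (0.00318), Rps26 (0.0136), Rpl28 (0.0152), Rpl29 (0.0167) and Rpl36 (0.0174). Rplp2, Rpl39, Rps19, Rpl32, Rps28, Rpl37, Rps20, Rpl14, Rps4x and Rps21 made up the rest. DESeq2 called 59 members, or 74.7%, where it called 16.7% of 37183 genes. By edgeR with RLE in place of TMM scaling 19 members were called, or 24.1%, where 22% of genes were. Without the filter edgeR called 11, or 13.9%, where 12% of genes were called. The main edgeR fit called 19% of the members, so their order against all genes turned with the tool and the scaling. The shares by DESeq2 and without the filter are over 37183 genes, against 19201 in the main fit. Without the filter 4465 genes were called, against 4227 in the main fit. The lower share of 12% thus came with the larger set of genes. The count by edgeR was 8 without the 25-month mice, where 5.22% of 18738 genes were called. It was 0 with the ages of 3 to 12 months alone, where 0.0763% of 18341 genes were called and 70 members had an unadjusted p under 0.05. Single mice moved it in both directions. It was 28, 28 and 24 without mouse 3 of the 9-, 18- and 25-month groups, or 35.4, 35.4 and 30.4% of the members, where 19.1, 24.7 and 23.2% of all genes were called. It was 6, 7 and 4 without the 3-month mouse 1, 2 or 3, where 18.4, 18.6 and 18.4% of all genes were called. It was 9 without the 6-month mouse 2 or 3 (18.8 and 18.4% of all genes), 7 without the 9-month mouse 2 (19.1%) and 8 without the 25-month mouse 1 (14.8%). Whether the members were called more or less often than all genes thus depended on single mice, the tool and the scaling, and on the set of genes counted.

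The median log2 fold change of the small subunit, large subunit and stalk genes was -0.33, -0.29 and -0.37 at 6 months and -0.51, -0.47 and -0.51 at 9 months. It was -0.24, -0.24 and -0.20 at 12 months, -0.31, -0.30 and -0.33 at 18 months and -0.30, -0.32 and -0.39 at 25 months. With ABT263 it was 0.17, 0.15 and 0.12 at 6 months and 0.30, 0.25 and 0.33 at 9 months. In the 6-month mice the small subunit median lay below the large subunit median in all 3, at -0.34, -0.39 and -0.26 against -0.26, -0.34 and -0.21. The differences between subunits were not tested.

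Members with short coding sequences lay apart from longer members in some libraries. The split at 300 bases was chosen after the values were seen and is given as a description, with no test. It used the 76 members with at least 5 CPM in every library, of which 10 were short (Rpl37, Rpl37a, Rpl38, Rpl39, Rpl41, Rps21, Rps27, Rps27l, Rps28 and Rps29). Each gene was first set against its own mean over the 24 libraries. In the 6-month mice the median short member lay below the median longer member by a log2 difference of -0.22, -0.53 and -0.25. In the 12-month mice it lay above it by 0.38, 0.31 and 0.21. The differences at 18 months were 0.32, 0.05 and -0.40, so mice of the same group lay at opposite ends. With ABT263 they were -0.13, -0.26 and 0.36 at 6 months and 0.21, 0.03 and 0.38 at 9 months, highest in mouse 3 of both groups. At 25 months they were 0.00, -0.02 and -0.10. The same difference among 208 other protein-coding genes with short coding sequences was -0.14, -0.05 and -0.05 at 6 months and 0.08, 0.27 and 0.04 at 12 months, of the same sign as in the members. In the ABT263 mice of 6 months, given below, the signs were the same too. In other groups some mice differed in sign. In the 3-month mice it was 0.11, 0.04 and 0.13, where the members had -0.05, 0.12 and -0.18, and with ABT263 at 9 months it was -0.08, -0.14 and 0.14.

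Rps29 shows this in counts. It had 301, 195 and 93.3 CPM in the 18-month mice and 155, 142 and 327 CPM in the ABT263 mice of 6 months. Mice of the same group thus lay at both ends of its range. Rps28, of the small subunit as well, had 253, 194 and 127 CPM at 18 months and 206, 184 and 284 CPM with ABT263 at 6 months. Among the other short genes, the difference from longer genes ran from -0.18 to 0.27 over the libraries. It was -0.17, -0.18 and 0.10 in the ABT263 mice of 6 months. At 18 months it was -0.03, -0.08 and 0.02, where the members spread widely. The part of transcript length in the members' differences was not tested. With only the 68 members of over 300 coding bases the medians were -0.31, -0.49, -0.25, -0.32 and -0.32 at 6, 9, 12, 18 and 25 months, and 0.14 and 0.26 with ABT263 at 6 and 9 months.

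**Figure D4:**
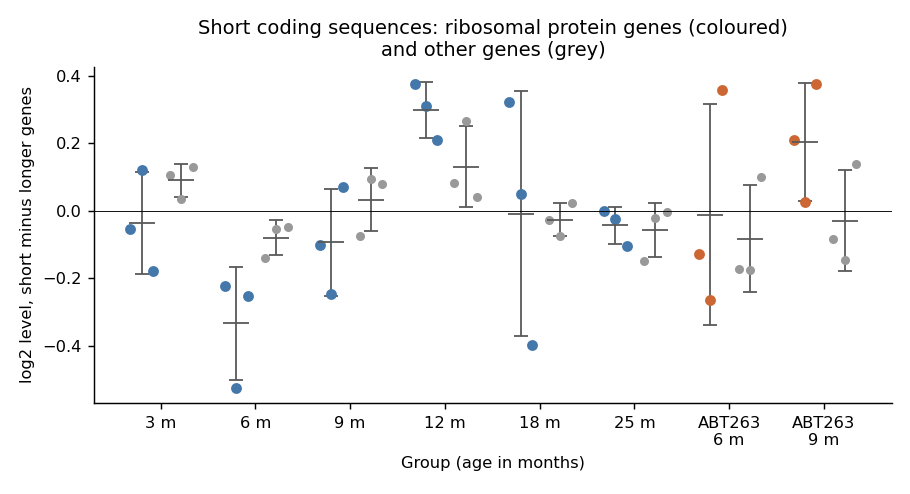
Log2 level of genes with a coding sequence of up to 300 bases minus that of longer genes (vertical axis, medians over genes) in each mouse by group (horizontal axis), for ribosomal protein genes (blue and orange points) and other protein-coding genes (grey points); bars are the mean and SD of 3 mice. Ribosomal protein genes range from -0.53 in a 6-month mouse to 0.38, and the 18-month mice alone span -0.40 to 0.32.

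With ABT263 most members had a log2 fold change above 0 against aging mice of the same age. None was called by edgeR with the filter on low counts. At 6 months none was called, nor was any of 17277 genes (0%). The median log2 fold change was 0.15 against 0.004 over all genes, and 77 of 79 members were positive against 50.9% of all genes. A higher level with an unadjusted p under 0.05 was found in 17 members and in 5.32% of all genes, and the treated mice lay above all aging mice in 47 members and in 7.47% of all genes. The count of 17 fell to 1 without the aging mouse 2 (3.55% of all genes), to 1 without the treated mouse 3 (5.41%) and to 5 without the aging mouse 1 (5.97%). The smallest p belonged to Rps28, with 162, 114 and 155 CPM in aging mice and 206, 184 and 284 CPM in treated mice (0.64 ± 0.18 SE, adjusted p = 0.244). Rpl39 had 142, 112 and 150 CPM in aging mice and 174, 150 and 258 CPM in treated mice (0.53 ± 0.20 SE, adjusted p = 0.369). Rpl38 had 138, 105 and 125 CPM in aging mice and 149, 143 and 284 CPM in treated mice (0.65 ± 0.25 SE, adjusted p = 0.377). In all 3 the groups did not overlap, and the treated mouse 3 was far above the other treated mice. Without it the median of the members was 0.11, and Rps28, Rpl39 and Rpl38 were at 0.43, 0.26 and 0.24. Without the filter 8 members were called higher, where 2.66% of 32774 genes were called in either direction, and by DESeq2 1, where 1.13% of genes were.

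At 9 months the median was 0.27 against 0.006, with 76 of 79 members positive against 51.1% of all genes. No member was called by edgeR, and no gene of 17065 was (0%), with a smallest adjusted p of a member of 0.852. DESeq2 called no member either, where 0.0981% of 32615 genes were called. A higher level with an unadjusted p under 0.05 was found in 10 members and in 2.22% of all genes, and the treated mice lay above all aging mice in 20 members and in 5.9% of all genes. The count of 10 was 2 without the aging mouse 2 (1.31% of all genes), 2 without the treated mouse 3 (2.7%), 6 without the aging mouse 1 (5.85%) and 18 without the aging mouse 3 (1.43%). Members with such a p in either direction numbered 43 in a fit of all 24 mice, 21 with the replicate block and 17 by DESeq2 or without the filter. Rpl38 had 124, 107 and 168 CPM in aging mice and 204, 181 and 293 CPM in treated mice (0.76 ± 0.24 SE, adjusted p = 0.852). Rps28 had 157, 122 and 166 CPM in aging mice and 209, 200 and 310 CPM in treated mice (0.69 ± 0.21 SE, adjusted p = 0.852). In both genes the groups did not overlap. Rps29 had 130, 105 and 176 CPM in aging mice and 210, 175 and 335 CPM in treated mice (0.80 ± 0.29 SE, adjusted p = 0.852), with the lowest treated mouse just below the highest aging mouse. Without the treated mouse 3, Rpl38, Rps28 and Rps29 were at 0.54, 0.47 and 0.49. Single mice moved the median: it was 0.16 without the treated mouse 3, 0.36 without the treated mouse 1 and 0.37 without the aging mouse 3, the library with the Rps2 pseudogene counts.

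The ABT263 difference itself was compared between 6 and 9 months by an interaction term over 12 mice. By edgeR no member was called and no gene of 18202 (0%), and no member had an unadjusted p under 0.05, against 7.33% of all genes. DESeq2 called no member, where 0.268% of 35420 genes were called. The median over members was 0.10, that is, higher at 9 months. The smallest p belonged to Rps2, which had 923, 1033 and 1040 CPM in aging and 1049, 1021 and 999 CPM in treated mice of 6 months, and 944, 816 and 577 CPM in aging and 1066, 951 and 1190 CPM in treated mice of 9 months (0.42 ± 0.23 SE, adjusted p = 0.75). The value of 577 CPM is that of the aging mouse 3, the library with the pseudogene counts, and without it Rps2 was at 0.25 (adjusted p = 0.939). Rps12 (0.28 ± 0.17 SE, adjusted p = 0.772) and Rps25 (0.25 ± 0.16 SE, adjusted p = 0.806) followed, and both were at 0.17 without the treated 9-month mouse 3. No member was called without any 1 of the 12 mice.

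Rplp0 also served as a reference gene for real-time PCR in the study. Its primers, as listed by the study, matched the gene on GRCm38 in exons 3 and 4 of 7, at chr5:115560946-115560967 and chr5:115561153-115561174, and are shown because any change in Rplp0 enters a value measured against it.
forward primer: gcttcgtgttcaccaaggagga
reverse primer: gtcctagaccagtgttctgagc

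By counts, Rplp0 had 1669, 1691 and 1940 CPM at 3 months, 1430, 1405 and 1569 CPM at 6 months and 1397, 1135 and 1232 CPM at 9 months. It had 1211, 1731 and 1404 CPM at 12 months, 1059, 1034 and 1508 CPM at 18 months and 1067, 1226 and 1113 CPM at 25 months. Only the 12-month group overlapped with the 3-month group. The log2 fold change from 3 months was -0.28 ± 0.12 SE (adjusted p = 0.53), -0.51 ± 0.15 SE (adjusted p = 0.221), -0.29 ± 0.19 SE (adjusted p = 0.541), -0.57 ± 0.18 SE (adjusted p = 0.1) and -0.64 ± 0.16 SE (adjusted p = 0.021) at 6, 9, 12, 18 and 25 months. The call at 25 months was lost with the replicate block and without the 3-month mouse 2 or 3 or the 25-month mouse 1, with adjusted p up to 0.0853. Rplp0 was called at 18 months by DESeq2, without the filter, with the replicate block, in a fit of all 24 mice and without the 18-month mouse 3, with adjusted p down to 0.012. In treated mice Rplp0 had 1581, 1638 and 1528 CPM at 6 months (0.10 ± 0.10 SE, adjusted p = 0.776) and 1473, 1376 and 1897 CPM at 9 months (0.33 ± 0.19 SE, adjusted p = 0.852), and both overlapped with the aging mice. Of 12 common PCR reference genes, Rplp0 among them, 2 were called lower and 2 higher at 25 months, with a list median of -0.07. Of all genes, 11.4% were called lower and 15.2% higher, so these counts were near the background. The beta-2-microglobulin gene B2m, the study's other PCR reference, was among the higher. It had 398, 294 and 247 CPM at 3 months and 2213, 1449 and 916 CPM at 25 months (2.28 ± 0.34 SE, adjusted p = 0.00388). Ovaries of 25 months were not part of the PCR that the study describes. With ABT263 at 6 and 9 months, the ages of that PCR, none of the 12 reference genes was called, nor was any gene.

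**Figure D5:**
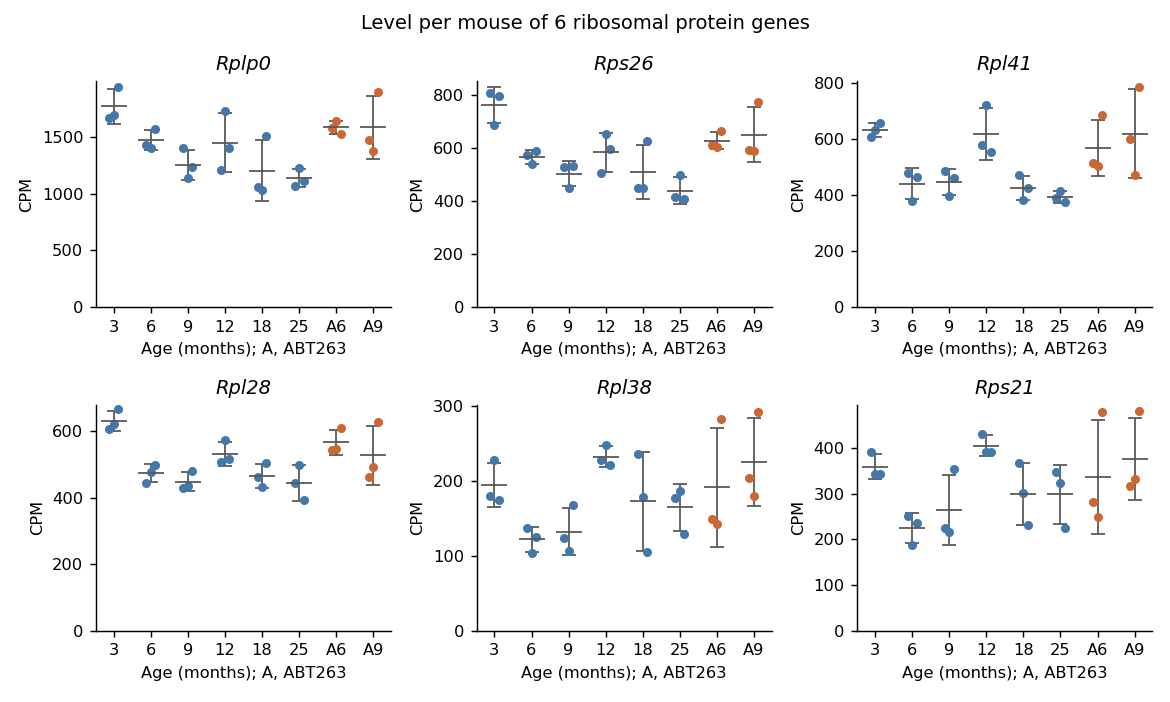
CPM (vertical axes, from 0) of 6 ribosomal protein genes in each mouse by age in months (horizontal axes; A6 and A9, ABT263 at 6 and 9 months); points are mice and bars the mean and SD of 3 mice. Rps26 and Rpl28 lie below all 3-month mice at every later age of the aging series, Rpl41 returns to 551 to 721 CPM at 12 months, and Rpl38 and Rps21 spread widely within the 18-month and ABT263 groups.

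Paralogs were compared where both copies were counted. Rps27l, a paralog of Rps27 that p53 induces, had 88.5, 84.6 and 83.4 CPM at 3 months and 52.3, 64.9 and 65.1 CPM at 25 months (-0.49 ± 0.13 SE, adjusted p = 0.0272). Rps27 had 513, 448 and 392 CPM at 3 months and 461, 483 and 327 CPM at 25 months (-0.10 ± 0.19 SE, adjusted p = 0.745). The difference between these changes was not tested, and Rps27l kept its call in 1 of 6 fits that left out a mouse. Rpl22 was at -0.08 ± 0.14 SE (adjusted p = 0.72) at 25 months, while its paralog Rpl22l1 was called lower (-0.44 ± 0.13 SE, adjusted p = 0.0398). That call was lost in 2 of 7 alternatives, the replicate block and no filter, and in 5 of 6 fits that left out a mouse. Rpl36a was at -0.32 ± 0.13 SE (adjusted p = 0.116) and Rpl36al, at 8 to 41 counts a library, could not be measured with precision. Ribosomal proteins under other symbols were read at 25 months too. Rack1, a signalling scaffold on the small subunit, was called lower (-0.46 ± 0.14 SE, adjusted p = 0.0498) and lost the call without any 1 of the 6 mice. Fau, which encodes a small subunit protein fused to a ubiquitin-like protein, was at -0.07 ± 0.16 SE (adjusted p = 0.781).

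Other genes of translation were read beside the members, with 11.4% of all genes called lower and 15.2% higher at 25 months as the background. Of 14 elongation and termination factor genes, 5 were called lower and none higher at 25 months, with a list median of -0.39. Eef1b2, the exchange factor of elongation, was at -0.56 ± 0.13 SE (adjusted p = 0.0188), and Gspt1, a termination factor, at -0.65 ± 0.16 SE (adjusted p = 0.0223), and each kept its call in 2 of 6 fits that left out a mouse. Of 38 initiation factor genes, 8 were called lower, with a median of -0.30, led by the eIF3 subunits Eif3l (-0.93 ± 0.12 SE, adjusted p = 0.00234) and Eif3f (-0.72 ± 0.13 SE, adjusted p = 0.0072). Of 58 ribosome biogenesis genes, 13 were called lower, with a median of -0.22, among them Nop16, a nucleolar protein (-0.77 ± 0.13 SE, adjusted p = 0.00617), and Polr1d, a subunit of RNA polymerases I and III (-0.62 ± 0.12 SE, adjusted p = 0.00892).

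The medians of these lists at the earlier ages stood as follows, with no test between lists. At 6 months the median of the biogenesis genes was 0.002, of the initiation factors -0.07 and of the elongation and termination factors -0.13. The ribosomal protein genes stood at -0.32. At 9 months these medians were -0.14, -0.13 and -0.24, against -0.49. None of these genes was called at either age. Of 9 counted snoRNA host genes, whose messages also begin with pyrimidine tracts, all 9 were below 0 at 9 months, with a median of -0.52 and no call. At 25 months 2 of them were called lower, Snhg1 (-0.71 ± 0.12 SE, adjusted p = 0.00569) and Snhg6 (-1.0 ± 0.19 SE, adjusted p = 0.00764). With ABT263 at 9 months all 9 were above 0, with a median of 0.26 and no call. Of 28 mTOR pathway genes, 3 were called lower and 1 higher at 25 months, with a median of -0.08, where 11.4% of all genes were called lower and 15.2% higher. These counts were not above the background. Eif4ebp1, a repressor of cap-dependent initiation, was lower (-0.68 ± 0.14 SE, adjusted p = 0.0105), and Rragd, a GTPase that brings mTORC1 to the lysosome, was higher (0.69 ± 0.16 SE, adjusted p = 0.0166), a call kept in 4 of 6 fits that left out a mouse.

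Genes of other large complexes were read the same way, against the same 11.4% of all genes called lower and 15.2% higher. Of 77 counted mitochondrial ribosomal protein genes, 17 were called lower at 25 months and all 77 were below 0, with a median of -0.36, and Mrpl33 (-0.82 ± 0.13 SE, adjusted p = 0.0042) and Mrps21 (-0.72 ± 0.13 SE, adjusted p = 0.00724) had the smallest p. At 9 months their median was -0.12 and at 12 months -0.06, with no call. Of 37 complex I genes, 6 were called lower at 25 months (median -0.33), with Ndufs4 (-1.04 ± 0.21 SE, adjusted p = 0.01) and Ndufb5 (-0.56 ± 0.14 SE, adjusted p = 0.0211) first. Ndufb5 kept its call in 3 of 6 fits that left out a mouse. Of 38 proteasome genes, 9 were called lower and 3 higher (median -0.34), the higher ones led by the immunoproteasome subunits Psmb8 (2.60 ± 0.29 SE, adjusted p = 0.0017) and Psmb9 (2.55 ± 0.30 SE, adjusted p = 0.00196). The 13 genes of the mitochondrial genome had no call at 25 months and a median of -0.16.

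Markers of ovarian and other cells moved with age as well. The oocyte markers summed to 520, 501 and 377 CPM at 3 months, 325, 311 and 305 CPM at 6 months, 218, 112 and 246 CPM at 9 months and 68.0, 110.1 and 89.1 CPM at 25 months. Of 13 oocyte genes, 11 were called lower at 18 months and 11 at 25 months, among them Bmp15 (-6.01 ± 0.56 SE, adjusted p = 0.000998) and Zp1 (-6.44 ± 0.71 SE, adjusted p = 0.00164). Of all genes, 3.48% were called lower at 18 months and 11.4% at 25 months. The late sums rested mostly on Kit, which averaged 64.0 CPM at 6 months and 65.7 CPM at 25 months. The mean sum at 25 months was 89.1 CPM, while the median log2 fold change of the list was -4.97. In treated mice of 6 months the oocyte genes summed to 457, 457 and 422 CPM, with all 13 above 0 and none called. The 10 proliferation genes summed to 837, 582 and 648 CPM at 3 months and to 264, 274 and 217 CPM at 25 months, where 9 were called lower, led by Ccnb1 (-3.14 ± 0.18 SE, adjusted p = 0.000521) and Cdk1 (-2.52 ± 0.17 SE, adjusted p = 0.000594). In treated mice of 6 months all 10 were above 0, none called, and they summed to 734, 762 and 578 CPM against 474, 501 and 571 CPM in aging mice. The part of these markers in the ribosomal protein results was not tested.

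No somatic marker was called at 6, 9 or 12 months. At 25 months, the age of most counts below, 11.4% of all genes were called lower and 15.2% higher. Of 12 granulosa genes, 9 were called lower and 1 higher at 25 months, with a median of -3.47, and Fst and Nr5a2 had the smallest p (-5.09 ± 0.24 SE, adjusted p = 0.00036, and -4.52 ± 0.30 SE, adjusted p = 0.000571). At 6 and 9 months none was called, with medians of -0.03 and 0.12. The luteal markers had no call at 9 months, but all 9 were above 0 with a median of 0.99. They summed to 19043.6, 33599.7 and 25039.9 CPM at 9 months and to 16410.4, 11459.8 and 20286.1 CPM at 3 months. At 25 months 2 luteal genes were called lower (Ptgfr and Akr1c18), and 2 of 5 theca genes (Ptch1 and Hhip). All 9 luteal genes were below 0, with a median of -1.41. The theca genes were mixed, with 3 of 5 above 0 and a median of 0.30. Of 8 stroma genes 4 were called higher, led by Dcn (2.42 ± 0.18 SE, adjusted p = 0.000663), and of 6 smooth muscle genes 2 lower (Actg2 and Cnn1). Of 7 endothelial genes 1 was called higher (Tek), which is not above the share of all genes. Of 7 counted epithelium genes 6 were called higher (Epcam and Krt19 first). Leaving out a mouse ended the call of Akr1c18 in 4 of 6 fits, of Cnn1 and Tek in 4 each and of Ptgfr in 1, and the call of Akr1c18 was also lost with the replicate block and in a fit of all 24 mice.

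Most immune cell markers were called higher at 25 months, and part of them at 18 months. Of all genes, 15.2% were called higher at 25 months, and 8.18% were called in either direction at 18 months. At 18 months 7 of 9 macrophage genes and 4 of 8 T and NK cell genes were called higher, and of 9 counted B and plasma cell genes 4 were called higher and 1 lower. The B and plasma cell genes summed to 5530, 754 and 272 CPM in the 18-month mice, so mouse 1 carried most of that sum. At 12 months the macrophage median was 1.08, with no call. At 25 months all 9 macrophage genes were called higher, among them C1qa (1.99 ± 0.24 SE, adjusted p = 0.00217) and C1qc (2.21 ± 0.30 SE, adjusted p = 0.00284). So were 9 of 10 B and plasma cell genes, led by Ighm (10.82 ± 0.76 SE, adjusted p = 0.000613) and Jchain (8.28 ± 0.77 SE, adjusted p = 0.000998), and all 8 T and NK cell genes, led by Cd4 (4.52 ± 0.34 SE, adjusted p = 0.000674) and Cd3e (4.89 ± 0.62 SE, adjusted p = 0.00235). The B and plasma cell genes summed to 24990.0, 25280.7 and 6596.2 CPM at 25 months and to 115, 83.1 and 80.5 CPM at 3 months. Of 5 red cell genes none was called, and of 3 counted fat cell genes 1 was called higher (Fabp4). Another fat cell gene, Plin1, was at -0.55 ± 0.46 SE (adjusted p = 0.424). The macrophage genes summed to 463, 534 and 605 CPM at 3 months, 884.5, 727.7 and 931.1 CPM at 6 months and 685.5, 751.1 and 666.7 CPM at 9 months. They summed to 868, 2386 and 1494 CPM at 12 months, 3319, 5271 and 2847 CPM at 18 months and 9891, 4746 and 2207 CPM at 25 months. The defining markers of the ovary, oocyte and granulosa genes included, were counted in every group, except that Figla was at 0 in the 25-month mice. In treated mice none of these markers was called. With ABT263 at 6 months all 9 macrophage genes were below 0, with a median of -0.46, and at 9 months all 9 were above 0, with a median of 0.52. Of the 9 luteal genes 8 were below 0 with ABT263 at 9 months, with a median of -0.76. Their part in the ABT263 values of the ribosomal protein genes was not tested. Which cells lost or gained ribosomal protein messages was not tested.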

How the data were processed

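Total RNA of whole ovaries was extracted with TRIzol, libraries were made with a NEBNext Ultra kit and sequenced by Novogene, and reads were aligned to mm10 with STAR per the submitters' processing notes. The authors deposited raw counts per Ensembl gene, with a column per mouse. The counting program, its strand setting and its treatment of reads that fit several genes are not given in the sources used here, and such reads can move counts between a ribosomal protein gene and its pseudogenes or overlapping genes. Gene models came from GENCODE M21 (54495 of 54532 identifiers matched) and start sequences from RefSeq.

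Counts of 24 libraries (16361877 to 21049389 each) were tested with the edgeR 4.0.16 quasi-likelihood F test in R 4.3.3, with TMM scaling, filterByExpr and Benjamini-Hochberg adjustment over all genes tested, at a threshold of 0.05. Each comparison used its 2 groups of 3 mice. The interaction used 12 mice and the test across ages 18. The p-values measure the spread between mice as labelled. Figures and tables were made with Python 3.11.15. Scripts were tested on simulated data. At the lowest and highest library total, 3 counts correspond to 0.183 and 0.143 CPM, which covers counting error only.

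Named members were the 3 with the smallest p in each direction of each comparison, the 3 highest and 3 lowest per kilobase, the 5 and 3 with the smallest p across ages and in the interaction, Rplp0, 3 pairs of paralogs, 3 ribosomal proteins under other symbols, and 2 genes of each other list. Other genes named here were called, or were chosen after their values were seen. The members and lists were chosen with earlier results of these data known, and not every ribosomal protein gene is reported here.

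Mice of different groups share replicate numbers. The deviations of same-numbered mice correlated by 0.25, 0.31 and 0.38 between 18 and 3 months, and in no other comparison did all 3 pairs exceed 0.1. Single same-numbered mice correlated more elsewhere, by 0.53 for mouse 1 in the ABT263 comparison at 9 months. The labels name no pairs, and these correlations cannot settle whether the numbers stand for pairs. The main values at 18 months come from the fit without pairs, and those with the replicate block are given as an alternative. Alternatives were RLE scaling, TMM without the members and mitochondrial genes, DESeq2 1.42.0, other filters, the replicate block, a fit of all 24 mice, a subtracted length and GC trend, and leaving out each mouse. DESeq2 and the fits without the filter took in every gene with any count. Their shares of all genes are over larger sets and cannot be set directly against those of the main fit. The alternatives without the 25-month mice, with the ages of 3 to 12 months, with the block and trend together, and with members over 300 coding bases were chosen after seeing the data.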

Additional observations from a re-analysis of the deposited data

Results flagged for a closer look

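In the 9-month aging mouse 3, the Rps2 pseudogene Rps2-ps10 had 3306 counts, where the other 23 libraries had 9 to 37 with a median of 23. Pseudogenes are outside the comparisons made above. Of 285 ribosomal protein pseudogenes it was the only one with over 100 counts in a library and over 10 times the highest 3-month library. Rps2 itself had 12014 counts in that mouse, against a median of 18714 elsewhere. How the reads of the gene and the pseudogene were assigned was not tested.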

How the results depend on the processing

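With 3 mice a group and single libraries that move the counts, calls of single members are less stable than the direction of the members. The median log2 fold change of the members kept its sign under every alternative and without any 1 mouse in the 5 age comparisons and both ABT263 comparisons. DESeq2 called 9, 24, 11 and 18 members at 6, 9, 18 and 25 months (0.368, 1.68, 7.93 and 17% of all genes in either direction), 1 with ABT263 at 6 months (1.13%) and 59 across the ages (16.7%). Without the filter 10, 3 and 3 members were called at 6, 9 and 18 months (1.39, 2.07 and 7.71% of all genes) and 8 with ABT263 at 6 months (2.66%). In a fit of all 24 mice 11 were called at 18 months (12.3% of all genes) and 31 at 25 months (34.1%). The replicate block gave 7 calls at 18 months (11.4% of all genes) and 6 at 25 months (23.7%), and at 18 months a median of -0.32 (-0.43 with the length and GC trend subtracted). Across the ages 8 were called without the 25-month mice (5.22% of all genes) and 0 with 3 to 12 months (0.0763%). The subtracted length and GC trend moved the median at 25 months to -0.60, with all genes at -0.10. A denominator without mitochondrial genes raised the share in all 8 groups, from 5.13 to 5.27% at 3 months and from 4.08 to 4.19% at 18 months, the group with the smallest SD. Leaving out a mouse gave 0 to 16 calls at 18 months (2.2 to 16.8% of all genes), 3 to 7 at 25 months (15.7 to 32.1%) and 4 to 28 across the ages (14.7 to 24.7%). The cause of these changes was not tested.

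Genes near 0 changed sign. Rps10 at 9 months was at -0.0019 with at least 10 counts in every mouse and at -0.0085 with the replicate block. Rpl23a with ABT263 at 9 months was at 0.0094 without the filter and at 0.0082 in the fit of all 24 mice. Leaving out a mouse moved Rps10 between -0.22 and 0.14 at 9 months, and between -0.25 and 0.012 and -0.17 and 0.23 with ABT263 at 6 and 9 months. It moved Rpl36al between -0.10 and 0.37 at 6 months, -0.30 and 0.50 at 25 months and -0.56 and 0.053 with ABT263 at 6 months. With ABT263 at 9 months Rpl23a lay between -0.14 and 0.092 and Rpl24 between -0.32 and 0.037. At 25 months Rps27 lay between -0.20 and 0.050, Rpl22 between -0.19 and 0.00019 and Fau between -0.15 and 0.028.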
